A study of Mus musculus and Rattus norvegicus with 37 samples.

Results

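The Bcl2 family genes of mitochondrial survival and death were followed in livers in which miR-29 was inhibited, and in livers of obese rats. The members were 9 genes chosen by symbol: Mcl1, Bcl2l1, Bcl2, Bak1, Bcl2l11, Bmf, Bik, Bid and Bad. All 9 were found among the 47929 uniquely named genes of the mouse tables, and 8 (all but Mcl1, which was not analysed in rats here) among the 28026 of the rat tables. Liver mRNA was measured by poly(A)-selected RNA-seq in 37 fed animals, 21 female C57BL/6J mice and 16 male Zucker rats. LNA29 is a pair of locked nucleic acid inhibitors, 1 against miR-29a and 1 against miR-29b and miR-29c, given once under the skin at 20 mg/kg each, with livers taken on day 7, and the controls received saline. The WT/Floxed group held 8 LNA29 mice (4 WT and 4 floxed) and 5 saline mice (3 WT and 2 floxed). WT mice were 9 to 11 weeks old and floxed mice, which carry the unrecombined Sirt1 allele, 15 to 20 weeks, and the authors had removed 1 further floxed saline mouse. The L-Sirt1 KO group, with Sirt1 deleted in liver and of the same age as the floxed littermates, held 4 LNA29 and 4 saline mice. The rats were 5.5-month-old Zucker Fatty rats (ZFR, fa/fa, obese through a leptin receptor mutation) and Zucker Lean rats (ZLR), 4 each, and 3-month-old ZFR given BT2, an inhibitor of branched-chain ketoacid dehydrogenase kinase, at 20 mg/kg or vehicle (dimethylsulfoxide) by daily injection for 1 week, 4 each.

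Depth was even in mice and uneven in rats. The mouse libraries held an estimated 42.6 to 78.0 M reads, and the rat libraries 0.188 to 58.5 M, where 1 read was worth up to 10.5 normalized counts. In the libraries labelled L-Sirt1 KO the Sirt1 value was not lowered: it was 535 to 595 normalized counts with LNA29 and 553 to 617 with saline, against 510 to 688 and 492.7 to 699 in WT/Floxed mice, in a table normalized separately. A gene-level value does not separate the deleted exon, so this group is called by its label. The paper compared hepatic Sirt1 between these genotypes by RT-qPCR as well, and those values are not part of the data used here. Markers of hepatocytes were abundant throughout, with summed levels of at least 287838 normalized counts in every rat library.

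Cells die through mitochondria when Bak or Bax opens pores in the outer mitochondrial membrane and lets cytochrome c out. The survival proteins Mcl1, Bcl2l1 (Bcl-xL) and Bcl2 hold Bak and Bax in check, and the BH3-only proteins Bcl2l11 (Bim), Bmf, Bik, Bid and Bad bind the survival proteins or, in some cases, switch on Bak and Bax directly. Hepatocytes depend on Mcl1 and Bcl-xL, and in them cleaved Bid carries the death receptor signal to mitochondria. Mcl1 is a known target of miR-29, a family of microRNAs that lowers its target mRNAs by pairing of its seed with their 3′ UTRs.

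The 3 mature miR-29 sequences are shown because LNA29 blocks them and because they share 1 seed, here in capitals (bases 2 to 8; RefSeq, GRCm38.p6).
miR-29a-3p: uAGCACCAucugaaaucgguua
miR-29b-3p: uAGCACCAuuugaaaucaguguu
miR-29c-3p: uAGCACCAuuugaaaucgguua

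Among the members, 4 of 9 held a match to this seed in the longest annotated 3′ UTR (GRCm38, GENCODE M21), each exactly 1. The searched strings, on the sense strand only, were TGGTGCT (7-base match) and TGGTGCTA (8-base match, which contains the former), and the same counts were found over all annotated 3′ UTRs of each gene. The windows are printed 5′ to 3′ on the gene's strand, with the match in capitals, since they show which members hold one of these strings. Shorter matches and regions outside the 3′ UTR were not searched.
Mcl1 (chr3:95661837-95661866, + strand): aagcaggctagagtcttaaccaTGGTGCTA
Bak1 (chr17:27020736-27020765, - strand): tcatcaataccccaacattgcaTGGTGCTA
Bmf (chr2:118531356-118531385, - strand): ttatgtatgtaaggaaagacatTGGTGCTA
Bcl2l11 (chr2:128158391-128158420, + strand): cccacgcgtcatgtccctctctTGGTGCTg

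The Mcl1 match began 1036 bases into a 3′ UTR of 2353 bases, the Bak1 match 188 bases into 1121, the Bmf match 1195 bases into 3801 and the Bcl2l11 match 84 bases into 4218. Those of Mcl1, Bak1 and Bmf were 8-base matches and that of Bcl2l11 was a 7-base match. The 3′ UTRs of Bcl2l1 (1477 bases), Bcl2 (5086), Bik (409), Bid (1427) and Bad (1026) held neither string. An annotated 3′ UTR was found for 13483 genes that entered the WT/Floxed test, of which 15.4% held a 7-base match and 3.33% an 8-base match. A match is a string of letters and was not taken as a working site.

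**Figure D1:**
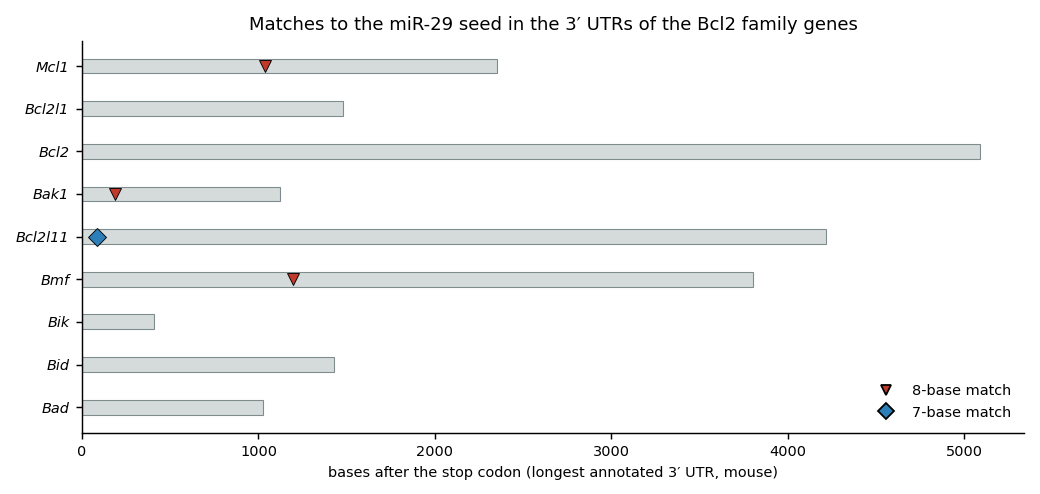
Each bar is the longest annotated 3′ UTR of a member in mouse, with bases after the stop codon on the horizontal axis, and the symbols mark 8-base (triangles) and 7-base (diamond) matches to the miR-29 seed. Mcl1, Bak1 and Bmf hold 1 8-base match each, Bcl2l11 holds 1 7-base match, and the other 5 bars hold none.

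Levels of different genes were compared per kb of the longest transcript. In saline WT/Floxed livers Mcl1 was the highest at 1722 ± 102 normalized counts per kb (SD, n = 5), followed by Bcl2l1 at 767 ± 81.3 and Bad at 605 ± 99.8. Bid (335 ± 40.0) and Bak1 (286 ± 29.6) came next. Bmf (124 ± 45.4), Bik (97.2 ± 16.8) and Bcl2l11 (52.1 ± 4.90) were lower, and Bcl2, the founding survival gene, was the lowest at 18.4 ± 2.40. Mcl1 lay above every other member in every mouse library, and Bcl2 below. Neighbours in this order whose library ranges overlapped were Bcl2l1 and Bad (679 to 884 against 524 to 751), Bid and Bak1 (274 to 384 against 248 to 322), and Bmf and Bik (89.2 to 202 against 77.3 to 123). In saline mice labelled L-Sirt1 KO the order was the same down to Bak1, with Mcl1 at 1848 ± 229 (SD, n = 4) and Bcl2 at 19.8 ± 2.13, and Bik (135 ± 40.0) stood before Bmf (81.1 ± 33.8).

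**Figure D2:**
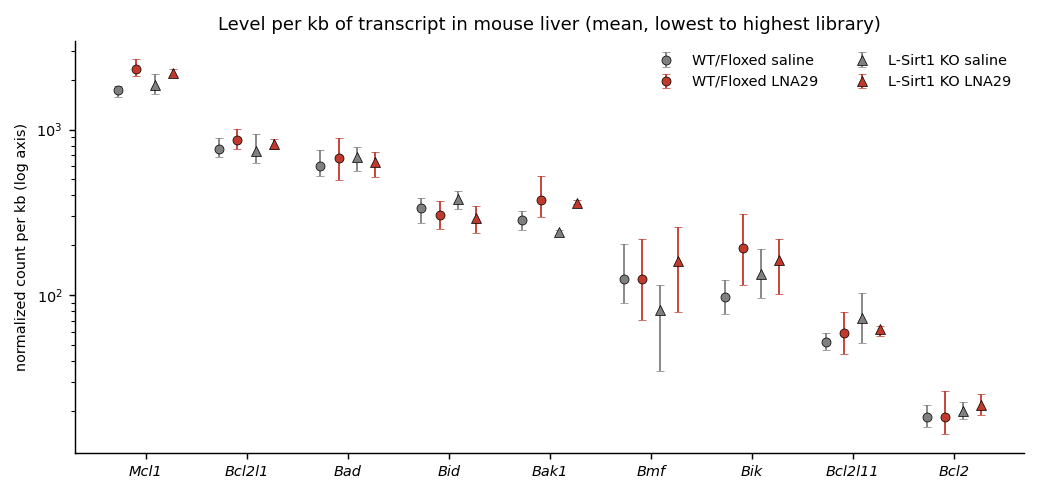
Normalized counts per kb of the longest transcript (log axis) are shown for the 9 members in the 4 mouse groups, as the mean (symbol) and the lowest to highest library (bar). In saline WT/Floxed livers they run from 1722 for Mcl1 down to 18.4 for Bcl2.

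The first comparison asked how the members responded to inhibition of miR-29. In WT/Floxed livers 2 of the 9 members rose, the survival gene Mcl1 and the BH3-only gene Bik, and none fell. The criteria (p under 0.05, adjusted p under 0.2, mean above 50 normalized counts and fold change above 1.2) called 4.35% of the 15811 genes tested, 2.42% as higher. Among mice labelled L-Sirt1 KO 1 of 9 members rose, the pore-forming effector Bak1, where the same criteria called 1.87% of 15885 genes, 1.19% as higher. Over all genes 688 were called in WT/Floxed livers, and 381 to 1006 when 1 library was left out, with 451 or fewer without LNA29 replicate 6, 7 or 8 or saline replicate 1. In the other table the 297 genes called became 77 to 426, with 165 or fewer without LNA29 replicate 2, 3 or 4 or saline replicate 2 or 4. Groups that did not overlap were seen for 1 member in each table, Mcl1 and Bak1 respectively, against 1.51% of all genes in WT/Floxed livers and 6.95% in the other table. The median log2 difference of the 9 members was 0.16 in both tables, against 0.0017 (WT/Floxed) and -0.0027 (L-Sirt1 KO) for all genes.

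**Figure D3:**
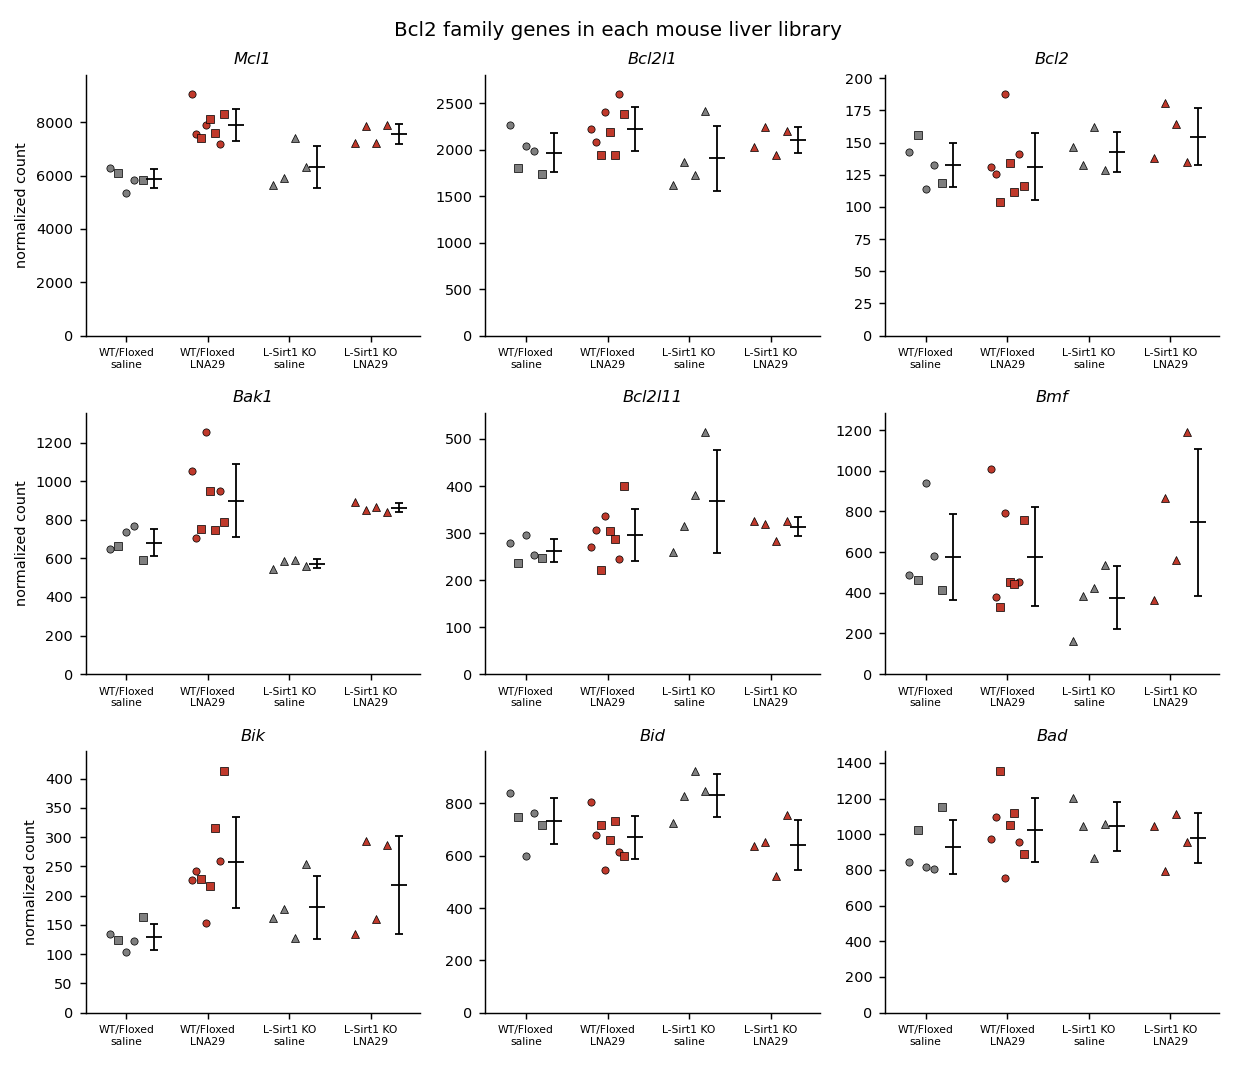
Normalized counts of each member are shown per mouse library (circles, WT; squares, floxed; triangles, labelled L-Sirt1 KO; grey, saline; red, LNA29), with the mean and SD beside each group. The 8 WT/Floxed LNA29 livers sit between 7174 and 9060 for Mcl1, all above the 5 saline livers, and the 4 L-Sirt1 KO LNA29 livers sit between 841 and 892 for Bak1, all above their 4 saline livers.

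The mRNA of Mcl1, which encodes a short-lived survival protein that binds Bak and Bim, rose in WT/Floxed livers. Proteins of the members were not analysed here. Normalized counts of Mcl1 were 6294, 6099, 5363, 5848 and 5828 in the saline livers and 7174 to 9060 (median 7738) in the 8 LNA29 livers. Every LNA29 liver lay above the highest saline liver. The rise was 1.34-fold, a log2 difference of 0.42 (SE 0.066, 95% confidence interval 0.28 to 0.56; limma, adjusted p = 0.0056), rank 37 of the genes tested, and the two-sided exact permutation test gave p = 0.000777. It was of like size within WT mice (log2 difference 0.44, 4 against 3 mice) and within floxed mice (0.40, 4 against 2). Within the 3 flow cells it was 0.37 to 0.55, the highest from 3 LNA29 livers against 1 saline liver. Set beside the 449 tested genes with an 8-base match, whose median log2 difference was 0.10, Mcl1 lay above 81.5% of them. Bak1 lay above 78.4% of them and Bik, which holds neither string, above 97.8%.

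The Mcl1 difference did not pass the criteria in mice labelled L-Sirt1 KO. Normalized counts were 5638, 5899, 7414 and 6317 with saline and 7225, 7864, 7211 and 7906 with LNA29. The groups overlapped through 1 saline liver, replicate 3, at 7414. The log2 difference was 0.26 (95% interval 0.05 to 0.48; limma, adjusted p = 0.348; two-sided exact permutation p = 0.0857). Without that liver it was 0.34 (limma, adjusted p = 0.184) and met the criteria. In 7 of the 8 fits without 1 library it did not, with log2 differences down to 0.21 and adjusted p up to 0.609. The response to LNA29 was not shown to differ between the genotypes (difference of log2 differences -0.16, SE 0.110, adjusted p = 0.710).

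The other 2 survival genes did not pass the criteria in either table. Bcl2l1, whose product Bcl-xL protects hepatocytes together with Mcl1, was at 1744 to 2269 normalized counts in saline and 1944 to 2602 in LNA29 WT/Floxed livers. These ranges overlapped, with 3 of 8 LNA29 livers above the highest saline liver, and the log2 difference was 0.17 (95% interval -0.01 to 0.36; limma, adjusted p = 0.425). For the L-Sirt1 KO label it was 0.16 (-0.12 to 0.44; adjusted p = 0.687). Bcl2 itself was at 114 to 156 normalized counts with saline and 104 to 188 with LNA29 in WT/Floxed livers, a log2 difference of -0.02 (-0.33 to 0.28; limma, adjusted p = 0.964), and 0.11 (-0.22 to 0.45) in the other table. The direction for Bcl2 differed between floxed (log2 difference -0.23) and WT mice (0.16).

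Bak1, which encodes the pore-forming effector that Mcl1 and Bcl-xL restrain, rose in mice labelled L-Sirt1 KO. Normalized counts were 545, 588, 593 and 560.3 with saline and 892, 852, 868 and 841 with LNA29. Both groups were narrow, and every LNA29 liver lay above every saline liver. The rise was 1.51-fold, a log2 difference of 0.59 (SE 0.0828, 95% interval 0.41 to 0.78; limma, adjusted p = 0.0239), rank 23 of the genes tested. The two-sided exact permutation p was 0.0286, the smallest that 4 against 4 livers allow. Within the 3 flow cells the log2 difference was 0.54 to 0.68, with 1 or 2 livers on each side. Among the 451 genes with an 8-base match tested in this table, whose median log2 difference was 0.14, Bak1 lay above 84.5%. Mcl1 lay above 66.7% of them and Bik above 65.0%.

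In WT/Floxed livers the Bak1 difference had the same sign and just missed the criteria. Normalized counts were 648, 662, 735, 769 and 593 with saline and 706 to 1254 (median 868) with LNA29, and 5 of 8 LNA29 livers lay above the highest saline liver. The log2 difference was 0.38 (SE 0.133, 95% interval 0.10 to 0.67; limma, adjusted p = 0.209; two-sided exact permutation p = 0.0179), with 0.44 within WT and 0.36 within floxed mice. The adjusted p was 0.107 with the background as a covariate and 0.162 with sample quality weights, and under both of these the gene met the criteria. These settings also called more genes in all, 988 and 1308 against 688. Bak1 stayed uncalled under 7 of 10 alternatives (limma, adjusted p up to 0.593) and in 11 of 13 fits without 1 library (up to 0.347). The response was not shown to differ between the genotypes (difference 0.21, SE 0.181, adjusted p = 0.770). The level of Mcl1 relative to Bak1, as a ratio of normalized counts within a library, had a median of 9.21 with saline and 9.23 with LNA29 in WT/Floxed livers. The L-Sirt1 KO libraries had ratios of 10.03 to 12.5 with saline and 8.10 to 9.40 with LNA29, which did not overlap. Bak1 alone did not overlap in these libraries, so the ratio is no separate result. A difference of the ratio between the genotypes was not tested.

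Bak1 lies within Ggnbp1, which runs on the opposite strand, and 614 of its 2407 exonic bases are also exonic in Ggnbp1. Whether the counting used strand is not given in the sources used here, so reads in the shared bases cannot be assigned to 1 of them. Ggnbp1 itself was at 740 to 823 normalized counts with saline and 631 to 759 with LNA29 in mice labelled L-Sirt1 KO, a log2 difference of -0.14 (limma, adjusted p = 0.621), opposite in sign to Bak1. In WT/Floxed livers it was 0.26 (adjusted p = 0.583). Bid shares 628 exonic bases with Bcl2l13, Bad shares 524 with Gpr137 and Bcl2 shares 558 with D630008O14Rik, while Mcl1, Bcl2l1, Bcl2l11 and Bmf overlap no annotated gene and Bik shares no exonic base.

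Bik, a BH3-only gene whose product sits at the endoplasmic reticulum, rose in WT/Floxed livers without holding either searched string in its 3′ UTR. Normalized counts were 135, 125, 103, 122 and 164 with saline and 152 to 414 (median 235) with LNA29. All but 1 of the LNA29 livers, a WT mouse at 152, lay above the highest saline liver. The rise was 1.92-fold, a log2 difference of 0.94 (SE 0.195, 95% interval 0.53 to 1.36; limma, adjusted p = 0.0289; two-sided exact permutation p = 0.00155). It was 0.98 within floxed and 0.85 within WT mice, and 0.84 to 1.21 within the 3 flow cells, 1 of which (1.07) held 1 saline liver. Under the L-Sirt1 KO label Bik was at 162, 177, 127 and 254 with saline and 134, 293, 159 and 287 with LNA29. These values overlapped widely, with a log2 difference of 0.24 (-0.43 to 0.90; limma, adjusted p = 0.802). The difference between the genotypes was -0.70 (SE 0.357, limma, adjusted p = 0.574), which did not pass the test.

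Bmf, which encodes a BH3-only protein bound to the cytoskeleton in healthy cells, spread widely within every mouse group. Its 3′ UTR holds an 8-base match. In WT/Floxed livers normalized counts were 488, 465, 938, 579 and 414 with saline and 329 to 1009.8 (median 454) with LNA29, a log2 difference of -0.04 (95% interval -0.62 to 0.54; limma, adjusted p = 0.971). The groups lay on top of each other. Under the L-Sirt1 KO label the values were 162, 386, 422 and 537 with saline and 366, 868, 560.4 and 1189.6 with LNA29. Of the 4 LNA29 livers 3 lay above the highest saline liver, and the log2 difference was 0.97 (0.03 to 1.92; limma, adjusted p = 0.435; two-sided exact permutation p = 0.171). The difference between the genotypes was 1.01 (SE 0.515, adjusted p = 0.573).

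Bid, which encodes the BH3-only protein cleaved by caspase-8, had the largest negative difference among the members in both mouse tables. The livers labelled L-Sirt1 KO held 726, 829.6, 925 and 847 normalized counts with saline and 636, 651, 521 and 754 with LNA29. Of the LNA29 livers 3 lay below the lowest saline liver, and the log2 difference was -0.38 (95% interval -0.67 to -0.09; limma, adjusted p = 0.303; two-sided exact permutation p = 0.0571). In WT/Floxed livers it was -0.13 (-0.36 to 0.09; adjusted p = 0.652). Neither passed the criteria.

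Bcl2l11, which encodes Bim and holds the 7-base match, was at 236 to 296 normalized counts with saline and 221 to 400.1 with LNA29 in WT/Floxed livers (log2 difference 0.16, 95% interval -0.12 to 0.44; limma, adjusted p = 0.678). The L-Sirt1 KO livers were at 259 to 514 with saline and 283 to 326 with LNA29, a log2 difference of -0.19 (-0.62 to 0.24; adjusted p = 0.761). Bad, which encodes a BH3-only protein held inactive by phosphorylation, showed log2 differences of 0.14 (-0.14 to 0.42) and -0.10 (-0.40 to 0.21), with adjusted p of 0.719 and 0.828 by limma. For both genes the groups overlapped in both tables.

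**Figure D4:**
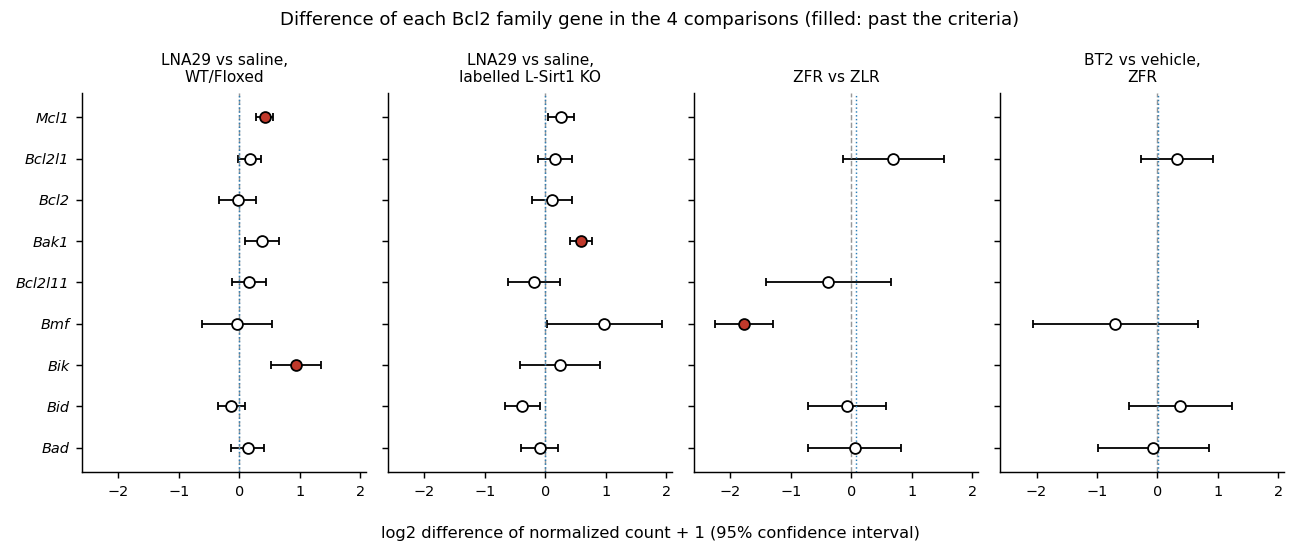
Log2 differences of the normalized count + 1 are shown for each member in the 4 comparisons, with 95% confidence intervals, and filled symbols passed the criteria. The dashed line marks 0, the dotted line marks the median of all genes tested, and members without a symbol were below the minimum mean or not analysed. Mcl1 (0.42) and Bik (0.94) in WT/Floxed, Bak1 (0.59) in L-Sirt1 KO and Bmf (-1.78) in ZFR against ZLR are filled.

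A test of the difference in response between the genotypes called none of the 9 members with limma at an adjusted p under 0.2, and none had an unadjusted p under 0.05. The lowest adjusted p was 0.573, for Bmf. Over all genes, 7 of 15601 were called (0.0449%). The WT/Floxed mice of this test included the younger WT mice, while the mice labelled L-Sirt1 KO had the age of their floxed littermates. Without a covariate for these, age and background cannot be told apart from genotype here or in the differences between genotypes given above.

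Several of the members are also used by blood cells, so markers of other cell types were read beside them. Summed macrophage markers (8 genes, none at 0) were at 8431 to 44016 normalized counts with LNA29 and 15413 to 26133 with saline in WT/Floxed livers, with negative differences for 7 of 8 and none called. With the L-Sirt1 KO label they were at 14792 to 18422 with LNA29 and 18598 to 22095 with saline, groups that did not overlap. There Vsig4 and Clec4f fell, and 1 of the 8 genes had a positive difference (median log2 difference -0.34). Lymphocyte markers (8 genes) summed to at most 2013 normalized counts in any mouse liver, with 0 of 8 called in either table. The highest macrophage and lymphocyte sums came from 1 liver, WT/Floxed LNA29 replicate 4, a WT mouse that also held the highest Bak1 and Bcl2 values of its group, and the next LNA29 liver was at 22788 and 1028. Without it the log2 difference of Bak1 was 0.31 (adjusted p = 0.226). Cholangiocyte markers (5 genes) were at 713 to 1029 with LNA29 and 563 to 782 with saline in WT/Floxed livers, with positive differences for 5 of 5 and none called. Of the stellate (8 genes), endothelial (7) and tested neutrophil (4) markers, the endothelial gene Lyve1 fell in both tables and no other was called. Of 6 hepatocyte markers, Apoa1 rose (log2 difference 0.51; limma, adjusted p = 0.0312) and Tat fell (-0.48, adjusted p = 0.0993) in WT/Floxed livers, and none was called with the L-Sirt1 KO label. The part of these cells in the values of Mcl1, Bik and Bak1 was not tested. In bulk liver, fewer cells of a type and less RNA per cell cannot be told apart.

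Known targets of miR-29 in the extracellular matrix show how far LNA29 moved other genes in these livers. Of 10 such genes 9 rose in WT/Floxed livers (median log2 difference 0.80) and 10 of 10 under the L-Sirt1 KO label (0.93). The differences of Mcl1 (0.42 and 0.26) and Bak1 (0.38 and 0.59) were below these medians. That of Bik, which holds neither searched string, was above the median in WT/Floxed livers (0.94) and below it under the L-Sirt1 KO label (0.24).

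Among 13 further tested members of the Bcl2 family, 2 rose in WT/Floxed livers and none fell. Bax, the second pore-forming effector, was at 1360.4 ± 219 normalized counts with LNA29 (SD, n = 8) and 952 ± 213 with saline (n = 5), a 1.44-fold rise (log2 difference 0.53, SE 0.141). Bok, a related effector, was at 669.8 ± 163 and 415 ± 107, a log2 difference of 0.68 (SE 0.188). Under the L-Sirt1 KO label their log2 differences were 0.36 (SE 0.151) and 0.39 (SE 0.207) and did not pass the criteria. There, 1 of the 13 rose and 1 fell. Bbc3 (Puma), a BH3-only gene induced by p53, was at 1082 ± 91.5 with LNA29 and 683 ± 137 with saline (SD, n = 4 each), a log2 difference of 0.68 (SE 0.138). Bnip3, a mitochondrial receptor for mitophagy, was at 6748 ± 359 and 10514 ± 1992, a log2 difference of -0.62 (SE 0.132). The median log2 difference of the 13 was 0.07 and 0.05.

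The caspases, the inhibitors of apoptosis, the death receptor arm and Mcl1 protein turnover showed no call in either mouse table. None of 14 genes of cytochrome c release and the caspases passed the criteria (medians 0.02 and 0.02), none of 5 inhibitors of apoptosis (medians -0.01 and 0.11), none of 9 tested genes of the death receptor arm in WT/Floxed (0.08) or of 8 in L-Sirt1 KO (-0.04), and none of 6 tested genes of Mcl1 protein turnover (0.03 and 0.11). Of 8 transcription factors known to drive BH3-only genes, E2f1 rose in WT/Floxed livers (177 ± 37.5 normalized counts with LNA29, n = 8, against 121 ± 25.5 with saline, n = 5; log2 difference 0.55, SE 0.173), and none was called in L-Sirt1 KO.

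The genes whose values followed Mcl1 most closely within groups were Ildr2 (Pearson r 0.87), Zfp280d (0.85) and Taf8 (0.84) over the 13 WT/Floxed livers, among 12876 genes with a mean above 50. Over the 8 livers labelled L-Sirt1 KO they were Adi1 (0.98), Pdk2 (0.97) and Nhlrc2 (0.97) among 12913 genes. These are the highest of many values over few livers that share libraries, and the lists had no gene in common.

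The rat comparison asked how the same genes stood in obese against lean livers. Of the 8 members listed, 5 reached the minimum mean of 10 normalized counts, and 1 of these, Bmf, differed at an adjusted p under 0.05, being lower in ZFR. At that limit 4.25% of 8633 genes were called, 2.46% as lower. These 367 genes became 225 to 235 without any 1 of the 4 ZFR. Groups did not overlap for 1 of the 5, against 14.5% of all genes. The median log2 difference of the 5 was -0.07, against 0.07 for all genes.

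Bmf stood at 60.0, 65.3, 63.2 and 73.1 normalized counts in the ZLR and at 16.4, 18.8, 14.6 and 24.9 in the ZFR. Every fatty rat lay below every lean rat. Bmf stood at 0.292 of the lean level, a log2 difference of -1.78 (SE 0.217, 95% interval -2.26 to -1.29; limma, adjusted p = 0.00189), rank 55 of the genes tested. The two-sided exact permutation p was 0.0286, the smallest that 4 against 4 rats allow. Behind these values stood an estimated 511 reads in the deepest ZFR library and 7 to 16 in the other 3, and 1566 and 1511 reads in the 2 deep ZLR libraries but only 6 and 7 in the other 2. With the libraries of at least 5 M reads alone, 1 ZFR against 2 ZLR, the log2 difference was -1.87 (adjusted p = 0.0416, taking the lone ZFR to vary like the lean rats). It was -1.78 and -1.77 within the 2 flow cells, each with 2 against 2 rats. The mean of Bmf over the 8 rats, 42.04 normalized counts, was below the minimum of 50 that the mouse criteria ask for.

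**Figure D5:**
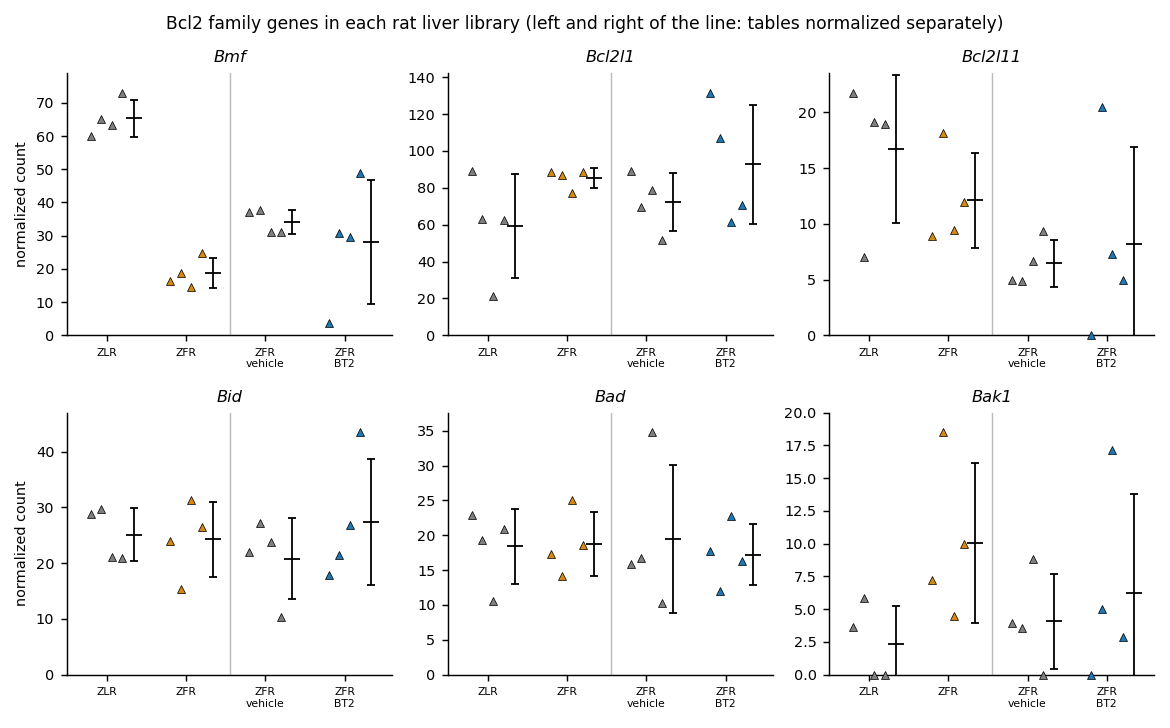
Normalized counts of 6 members are shown per rat library, with the mean and SD beside each group, and the line separates 2 tables that were normalized separately. For Bmf the 4 ZFR sit between 14.6 and 24.9, all below the 4 ZLR at 60.0 to 73.1. SD bars that would reach below 0 end at the axis.

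The other rat members did not pass the test. Bcl2l1, the most abundant of them in normalized counts, was at 89.4, 63.1, 21.1 and 62.6 in ZLR and 88.5, 87.1, 77.3 and 88.7 in ZFR. The ZLR value of 21.1 rests on an estimated 2 reads, and the log2 difference was 0.69 (95% interval -0.14 to 1.53; limma, adjusted p = 0.396), and 0.27 without that rat. Bcl2l11 (log2 difference -0.38, -1.41 to 0.66), Bid (-0.07, -0.72 to 0.58) and Bad (0.05, -0.72 to 0.83) had adjusted p of 0.698, 0.914 and 0.943. Bak1 was at 0 to 5.83 normalized counts in ZLR and 4.45 to 18.5 in ZFR and was below the minimum mean, as was Bcl2 at 0 to 2.65. Bik was listed at 0 in 6 of the 8 rats and at 0.225 and 0.345 in the deepest ZFR and ZLR libraries.

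With BT2 none of the 4 members tested passed the limit with limma, and none had an unadjusted p under 0.05. The same limit called 0% of 8405 genes, of which 332 (3.95%) had an unadjusted p under 0.05. The groups overlapped for each of the 4 members, and did not for 2.96% of all genes. Bmf was at 37.2, 37.6, 31.2 and 31.0 normalized counts with vehicle and 3.56, 30.7, 29.5 and 48.9 with BT2. The value of 3.56 stands for 1 read in that library. The log2 difference was -0.70 (95% interval -2.06 to 0.67; limma, adjusted p = 0.898), and 0.05 without that rat. For Bcl2l1 the log2 difference was 0.32 (-0.28 to 0.91), for Bid 0.38 (-0.48 to 1.24) and for Bad -0.07 (-0.98 to 0.85). Each of these intervals reaches to both sides of 0, in libraries of 0.193 to 8.96 M reads. The Bmf levels of these ZFR and of the older ZFR come from separately normalized tables and were not compared.

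In the rats 9 of 9 listed matrix targets of miR-29 had positive log2 differences in ZFR against ZLR and 4 were called, where 4.25% of all genes were. The paper reports higher, not lower, hepatic miR-29 in ZFR than in ZLR. The part of miR-29 in these differences was not tested. Of 6 transcription factors of BH3-only genes tested, Stat3 rose (330.4 ± 12.1 normalized counts in ZFR against 184 ± 18.9 in ZLR, SD, n = 4 each; log2 difference 0.85, SE 0.108). No gene of the further Bcl2 family (5 tested), of cytochrome c release and caspases (12), of the inhibitors of apoptosis (3), of the death receptor arm (6) or of Mcl1 turnover (6) was called in this comparison, nor with BT2. Beside the Bmf difference, 3 of 8 hepatocyte markers fell (Apob and Fgb among them) and 1 rose (Tf), with summed levels of 287838 to 381601 normalized counts in ZFR and 317137 to 370782 in ZLR. Of the 6 endothelial markers tested, 2 had positive differences (median log2 difference -0.07), and 1, Stab2, rose (log2 difference 1.16, limma adjusted p = 0.0330). Summed endothelial markers overlapped, at 406 to 578 normalized counts in ZFR and 445 to 585 in ZLR. Summed lymphocyte markers were at 50.1 to 76.5 normalized counts in ZFR and 20.9 to 45.0 in ZLR, which did not overlap, with up to 6 of the 8 genes at 0 in a library and none of the 2 tested called. The part of these markers in the Bmf difference was not tested.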

How the data were processed

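The deposited values are a signal: per the labels and the study's methods, the authors aligned 100-base single-end reads with STAR (mm10 or rn6), estimated gene counts with Salmon and normalized them with DESeq2, each table on its own. Whole reads could not be recovered (72.1% to 90.8% of low values were whole multiples of 1 read within 0.05), so no count model was run. Every one of the 37 columns was matched to a sample. Depth was the sum of a library divided by its most frequent low value. Entries without a name (381 in mouse tables, 201 in rat tables) or with a repeated name (130 and 4523) were left out.

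Tests used R 4.3.3 with limma 3.58.1 (trend) on log2(normalized count + 1), so that fold changes of low genes are understated, over genes with a mean of at least 10, adjusted by the Benjamini-Hochberg method over all of them. Mouse criteria were p under 0.05, adjusted p under 0.2, mean above 50 and fold change above 1.2; the rat limit was an adjusted p under 0.05. Intervals use limma's moderated standard errors. Scripts were tested on simulated data. The 3′ UTRs came from GENCODE M21 (GRCm38), and strings were searched with Python 3.11.15 and pandas 2.3.3, without a rat genome. Members, gene lists and tests were chosen with earlier results of these data known. All members listed in a table are named (9 in mouse, 8 in rat); from other lists, at most the 3 called genes with the lowest p. The alternatives changed the pseudocount (10), the minimum mean (none), the scaling (TMM) and the weights (sample quality, precision), or added flow cell, background or replicate number as covariates; other limits, exact tests and fits without each library were also run.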

Additional observations from a re-analysis of the deposited data

Results flagged for a closer look

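In 7 of 66 sets of 4, 5 or 8 libraries, 1 library stood farther from the others than Dixon's test at 95% allows. Chance gives about 1 in 20 for normally distributed values. That rate does not apply to Bik in ZFR and in ZLR or to Bcl2 with BT2. There all other libraries of the set were at 0, so any value above 0 is flagged. In WT/Floxed LNA29 mice Bcl2 was 188 normalized counts in replicate 4, a WT mouse, against 104 to 141 in the other 7. The same liver had the highest summed macrophage (44016) and lymphocyte (2013) markers of the mice, and the part of these in the Bcl2 value was not tested. In LNA29 mice labelled L-Sirt1 KO, Bcl2l11 was 283 in replicate 3 against 320.2 to 326. In ZFR, Bcl2l1 was 77.3 in replicate 3 against 87.1 to 88.7. The other 4 rest on few estimated reads in rats: Bik at 0.225 in ZFR replicate 1 and 0.345 in ZLR replicate 1, the deepest libraries of their groups, and Bcl2 at 1.51 in BT2 replicate 3 and 9.68 in vehicle replicate 4, which stands for about 1 read there.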

How the results depend on the processing

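Mcl1 and Bik in WT/Floxed mice, Bak1 in mice labelled L-Sirt1 KO and Bmf in ZFR against ZLR kept their direction under every alternative run, and Mcl1, Bak1 and Bmf kept their calls too, apart from Bmf under the mouse criteria, where its mean below 50 left 0 members called. Leaving out 1 library gave log2 differences of 0.39 to 0.45 for Mcl1, 0.84 to 1.04 for Bik, 0.57 to 0.61 for Bak1 and -1.92 to -1.67 for Bmf. With sample quality weights 2 members were called in L-Sirt1 KO (Mcl1 added, adjusted p = 0.197), and leaving out 1 library there gave 1 to 2, the latter without saline replicate 3. Bak1 in WT/Floxed mice was called under 5 alternatives: quality weights, the background covariate, the exact test and without LNA29 replicate 2 or 3. For the exact test a call means only an unadjusted p under 0.05, a looser limit than that of the others. The number of genes called moved more: from 688 to 396 without a minimum mean and 1308 with quality weights in WT/Floxed, from 297 to 103 with the flow cell as covariate and 804 with quality weights in L-Sirt1 KO, and from 367 to 73 in libraries of at least 5 M reads and 1169 with quality weights in rats.

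Replicate numbers do not pair the samples: correlations of the deviations of same-numbered libraries ran from -0.35 to 0.28 over the tables, and in no table did every library correlate best with its own number. With the replicate block 1 member was called in WT/Floxed (Bik was not, log2 difference 0.71, limma adjusted p = 0.352) and 2 in L-Sirt1 KO (Bmf added, adjusted p = 0.123), and it turned the sign of Bcl2 in WT/Floxed (0.024) and of the genotype difference of Bcl2l1 (0.014). In WT/Floxed the block called 56 genes in all.

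Signs also turned, without a call, for Bmf in WT/Floxed with the background covariate (0.0040), for Bcl2l11 (0.016) and Bad (-0.17) in ZFR against ZLR and Bid with BT2 (-0.018) under quality weights, and for Bad in ZFR against ZLR with precision weights (-0.22) and in libraries of at least 5 M reads (-0.26). Leaving out 1 library turned Bcl2 (-0.10 to 0.035) and Bmf (-0.17 to 0.15) in WT/Floxed, Bad in L-Sirt1 KO (-0.18 to 0.00074), Bid (-0.20 to 0.13) and Bad (-0.18 to 0.18) in ZFR against ZLR, Bmf (-1.10 to 0.053) and Bad (-0.31 to 0.25) with BT2, and the genotype difference of Bcl2l1 (-0.090 to 0.10). The causes were not tested. The 5 M read limit left 0 BT2 and 1 vehicle libraries, so no value was obtained there. In rats, members at a low level rest on a few reads.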
